A study of Mus musculus with 14 samples.

Results

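The serpins of mouse epididymal fat were taken as every array gene whose current symbol starts with Serpin, each read through the probe set of highest mean log2(signal + 32). This gave 31 members among 12394 array features. They were 30 genes with a symbol of their own and 1 further member, the Serpina1 group, which is a probe set annotated to both Serpina1a and Serpina1d. By clade, the letter that follows Serpin in the symbol, 9 members belonged to clade A and 14 to clade B, and the other members to clades C, D, F, G, H and I. A single further probe set annotated to several clade B genes was left out, and serpins outside these 31 were not analysed here.

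The samples were labelled as epididymal fat pads of male ICR mice at 3 weeks of age, and each was measured on 1 Affymetrix array. UC mice (n = 5) had a dam whose food was cut by 50% in pregnancy and who then ate freely in lactation. UU mice (n = 4) had a dam kept at the 50% cut through pregnancy and lactation, and CC mice (n = 5) a dam that ate freely in both periods. UC and UU pups therefore shared the prenatal restriction and differed in nursing. The labels do not say which pups were littermates, so p-values measure the spread between these samples.

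Serpins share one fold, in which an exposed loop is offered to a protease as bait and, once cut, inserts into the body of the inhibitor and traps the enzyme. Clade A holds most of the serpins secreted into plasma, chiefly by liver, and clade B holds serpins that stay inside cells. Some members inhibit nothing: they carry hormones, chaperone collagen or act as secreted factors. Serpina1 encodes alpha-1 antitrypsin, the plasma inhibitor of neutrophil elastase. Humans have 1 functional gene for it, whereas mice carry a row of near-identical copies.

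Upstream sequences of the Serpina1 copies are shown as a description of these near-identical genes. The windows run from 250 bases before to 50 bases after the RefSeq gene start, 5′ to 3′ on the minus strand of GRCm38.p6, at chr12:103738140-103738439 for Serpina1b and chr12:103904901-103905200 for Serpina1c. Capitals mark the longest run of bases that all 5 copies, Serpina1a to Serpina1e, hold without a mismatch.
Serpina1b: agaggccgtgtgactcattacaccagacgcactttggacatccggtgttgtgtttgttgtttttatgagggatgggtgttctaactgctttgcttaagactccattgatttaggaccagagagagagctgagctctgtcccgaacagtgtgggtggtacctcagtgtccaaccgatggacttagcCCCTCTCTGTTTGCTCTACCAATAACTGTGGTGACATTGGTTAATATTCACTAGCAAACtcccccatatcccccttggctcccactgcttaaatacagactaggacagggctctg
Serpina1c: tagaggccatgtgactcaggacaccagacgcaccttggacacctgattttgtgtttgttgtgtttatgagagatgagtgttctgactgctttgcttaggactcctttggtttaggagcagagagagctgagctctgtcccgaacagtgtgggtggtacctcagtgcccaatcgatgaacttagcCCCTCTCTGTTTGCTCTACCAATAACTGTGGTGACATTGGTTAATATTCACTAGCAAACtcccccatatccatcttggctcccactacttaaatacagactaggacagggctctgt
The shared run is 59 bases long. In these windows it starts 65 bases before the gene start of Serpina1b and 66 bases before that of Serpina1c. Over the 10 pairs of copies the aligned windows were 91.7% to 98.4% identical, with 92.6% for Serpina1b and Serpina1c. The windows lie mostly before the gene start, so their likeness does not tell which transcripts a probe set binds. The run holds GTTAAT, the half-site of HNF1, a transcription factor of liver. Searched on both strands, GTTAAT was present in all 5 copies and in 7.13% of 32544 promoter windows of 300 bases. All 5 copies hold it inside the same shared run, so they are not 5 separate matches. Among the other members, Serpinb8 and Serpini2 held it. The full HNF1 palindrome and the glucocorticoid response element were also searched, and 0 of the 5 copies held either. The GTTAAT match is a description of letters. Promoter windows were found for 26 of the 30 singly named members, all credited to RefSeq.

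Some fat pads carried other tissue or went against their labels. Xist, the RNA that silences an X chromosome in females, had signals of 5642 (UC replicate 5) and 3981 (CC replicate 2), and no other sample exceeded 1324. Of the Y-linked genes, Eif2s3y was at 7.9 (UC replicate 5) and 58.6 (CC replicate 2), and at 1234.9 or more elsewhere. Kdm5d was at 339.5 and 150.3 in these samples and at 716.2 or more elsewhere. These values go against the male label of both samples, and so against their label as epididymal fat. Gpx5, an epididymal glutathione peroxidase, was at most 1155 in UC replicates 2 and 5 and CC replicates 2 and 4, and at least 5711 in the other 10 samples. Alb, the liver gene for albumin, reached a signal of 25660.3 in UC replicate 2, and its highest value elsewhere was 3190.5. Adipoq, the adiponectin gene that defines adipocytes, was at 25263 or more in every sample, so every sample carried fat. Results are given with and without these samples where they rest on them.

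After the dimmest 40% of features were left out, 7437 were tested, 11 serpins among them. Mean log2 signals of these 11 ran from 9.43 for Serpinf2 to 13.44 for Serping1, and the brightest of the 20 members below the filter was Serpinb9b at 9.23. Brightness differs between probe sets for technical reasons, so levels of different genes were not compared. In UC against UU, 1 of the 11 was called higher at an adjusted p under 0.05, where 0.686% of all features were called higher. In UC against CC and in UU against CC, 0 serpins were called, and the share called over all features was 0% in each. Over both directions 0.807% of features were called in UC against UU, and 0.121% were called lower. At an unadjusted p under 0.05, by limma, UC against CC had 1 serpin higher and 0 lower, beside 4.76% and 3.99% of all features (8.75% in all). UU against CC had 0 higher and 5 lower, beside 8.63% and 7.75% (16.4% in all). UC against UU had 5 higher and 0 lower, beside 9.17% and 8.74% (17.9% in all).

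**Figure D1:**
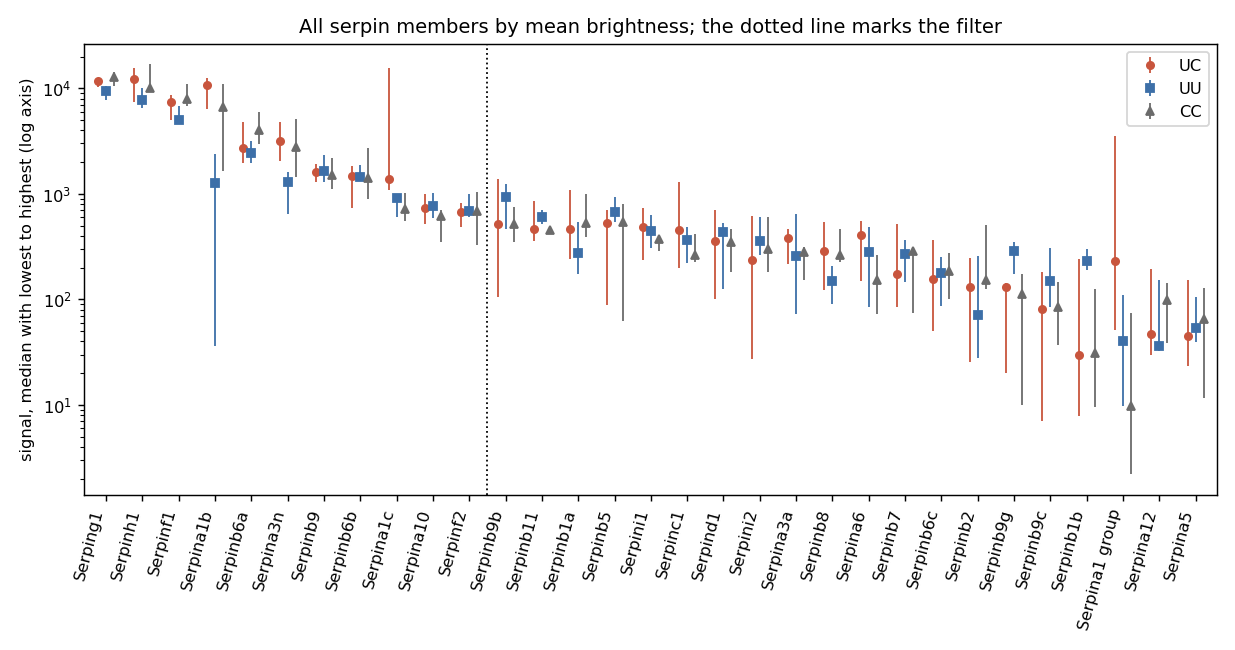
Signal of all 31 serpin members on a log axis, ordered by mean brightness, with the median of each group as a marker (UC, UU, CC) and a line from the lowest to the highest sample. The 11 members left of the dotted line were tested; Serpina1b is the member whose UU median lies far below the UC and CC medians.

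Serpina1b was higher in UC fat than in UU fat, and this was the one serpin called in any comparison. Its signals were 6434, 12551, 10719.9, 12213 and 10708 in UC replicates 1 to 5, against 36.2, 1452, 1073 and 2367 in UU replicates 1 to 4. CC fat had 6699, 1629, 6967, 10925 and 3991. All 5 UC samples lay above every UU sample, as on the higher side for 3.5% of all features tested. The CC samples spread between the 2 groups and overlapped both. UC averaged 10530.0 ± 2440 and UU 1232 ± 965 (SD, n = 5 and 4). The log2 difference was 3.84 with an SE of 0.78 and an adjusted p of 0.0343 by limma, a 14.3-fold change on the log2(signal + 32) scale.

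Against CC fat, whose mean was 6042 ± 3490 (SD, n = 5), Serpina1b in UU gave a log2 difference of -2.83 ± 0.78 (adjusted p = 0.141) and in UC one of 1.01 ± 0.74 (adjusted p = 0.705). Neither was called. Without UU replicate 1 the first was -1.69, and without CC replicate 2 the second was 0.61. The dimmer Serpina1b probe set had 6462, 11869.8, 9908, 10588 and 9863 in UC samples, 68.7, 1148, 1102 and 2228 in UU samples and 1494 to 9064 in CC samples. Its log2 differences were 3.69 for UC against UU, -2.46 for UU against CC and 1.23 for UC against CC. Affymetrix marks both as sets whose probes can also bind other transcripts, so signal of another copy in them was not tested. A dim probe set annotated to Serpina1b, Serpina1c and Serpina1e had 42.5 to 321.8 in UC, 3.0 to 111.6 in UU and 4.1 to 42.4 in CC samples. It gave 0.66 for UC against UU and 1.31 for UC against CC. For UU against CC it gave 0.65, opposite in sign to the brighter sets.

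UU replicate 1 had the lowest Serpina1b signal on both probe sets, and without it the log2 difference of UC against UU was 2.7 (limma adjusted p = 0.0933). The call was also lost without CC replicate 1, UC replicate 2, 4 or 5, or UU replicate 2 or 3, with adjusted p from 0.052 to 0.104 and log2 differences from 3.76 to 4.19. Without the 2 samples with Xist signal it was 3.82 (adjusted p = 0.0675), and without the 4 samples low in epididymal markers 3.72 (adjusted p = 0.145).

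No difference between copies was tested. Serpina1c had signals of 2023, 15702, 1392, 1232 and 1086 in UC replicates 1 to 5, against 927, 936, 893 and 602 in UU samples and 558, 558, 725, 998.6 and 1025 in CC samples. UC replicate 2 stood far above the rest, and all 5 UC samples lay above every sample of the other groups. Groups did not overlap on the higher side for 1.01% of all features in UC against CC and for 3.5% in UC against UU. The log2 difference of Serpina1c was 1.56 ± 0.54 for UC against CC (limma adjusted p = 0.518), 1.42 ± 0.57 for UC against UU (adjusted p = 0.218) and 0.14 ± 0.57 for UU against CC (adjusted p = 0.917). Without UC replicate 2 it was 0.87 for UC against CC and 0.73 for UC against UU.

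The Serpina1 group was below the filter. Its signals were 379, 3499, 89.7, 231 and 50.8 in UC samples, against 109.8, 69.2, 11.7 and 9.8 in UU samples and 24.0, 2.2, 74.0, 9.7 and 3.8 in CC samples. UC replicate 2 was again the highest sample. In a fit without the filter the log2 difference of the group was 2.73 ± 0.78 for UC against CC (limma adjusted p = 0.515), 2.2 ± 0.82 for UC against UU (adjusted p = 0.26) and 0.53 ± 0.82 for UU against CC (adjusted p = 0.799). Without UC replicate 2 it was 1.87 for UC against CC and 1.34 for UC against UU. At signals this low the pseudocount sets the size: with 1 in place of 32 these differences were 4.43 and 3.07, and with a pseudocount 4 times as large they were 1.69 and 1.47. A dimmer probe set annotated to Serpina1b, Serpina1c and Serpina1e gave 1.31 for UC against CC, 0.66 for UC against UU and 0.65 for UU against CC.

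Liver transcripts moved with some of these values. The mean log2 level of 19 liver markers was 11.7 in UC replicate 2 and 8.76 to 9.71 in the other UC samples. It was 8.76 to 8.98 in UU samples and 8.11 to 8.71 in CC samples. With UC replicate 2 included, 6 of the 7 tested markers were above 0 in UC against CC and 7 of 7 in UC against UU. Over all 7437 features, 3679 and 3218 were above 0 in these comparisons. Rbp4, Hp and Trf of this list are also made by fat. Alb was at 1758, 25660.3, 1324, 3190.5 and 1434 in UC replicates 1 to 5, at 1022 to 1520.4 in UU samples and at 550.4 to 962 in CC samples. The 4 UC samples other than replicate 2 had Serpina1b at 6434 to 12213 with Alb at 1324 to 3190.5, and the 4 UU samples had Serpina1b at 36.2 to 2367 with Alb at 1022 to 1520.4. CC samples reached 10925 for Serpina1b with less Alb than any UU sample. The part of liver transcripts in the values of Serpina1b, Serpina1c and the Serpina1 group was not tested.

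**Figure D2:**
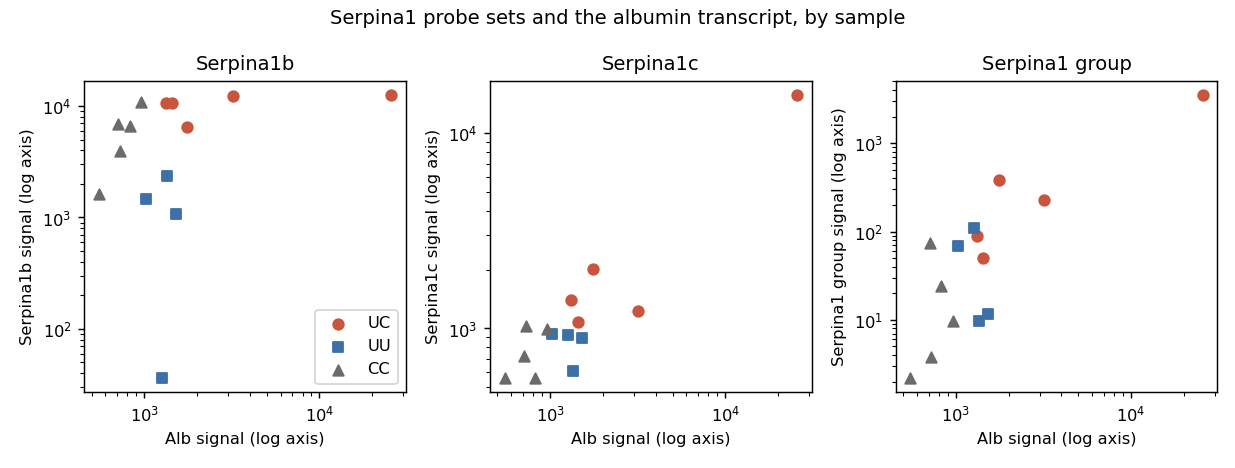
Signals of Serpina1b, Serpina1c and the Serpina1 group against that of Alb in each of the 14 samples (UC circles, UU squares, CC triangles), both on log axes. UC replicate 2, at an Alb signal of 25660.3, is the highest sample in all 3 panels.

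Of the other clade A members, Serpina3n, a secreted inhibitor of cathepsin G and granzyme B that is induced in inflammation, was lowest in UU fat. Its signals were 3163, 4826, 2048, 4715 and 2751 in UC samples, against 640, 1615, 1308 and 1303 in UU samples. CC samples had 3202, 2225, 2782, 5087 and 1430. All UC samples lay above every UU sample, as on the higher side for 3.5% of all features tested. UU replicate 2 and CC replicate 5 overlapped. The log2 difference was 1.5 ± 0.35 for UC against UU (limma adjusted p = 0.0567), -1.21 ± 0.35 for UU against CC (adjusted p = 0.144) and 0.29 ± 0.33 for UC against CC (adjusted p = 0.815), none of them called. For UC against UU it passed in several of the alternative fits, with adjusted p from 0.0275 to 0.491 over those run.

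Markers of several cell types also differed in level between UU and the other groups. The mean log2 level of 14 macrophage markers was 10.89 to 12.38 in UC samples, 10.18 to 10.98 in UU samples and 11 to 12.43 in CC samples, with 12 of 13 tested below 0 in UU against CC. That of 10 adipocyte markers was 14.67 to 15.45 in UC, 13.99 to 14.64 in UU and 14.53 to 15.35 in CC samples. In UU against CC, 9 of 9 tested endothelial markers were below 0 (median -0.53) and 14 of 14 general epithelial markers above 0 (median 0.93). The macrophage markers Retnla and Mrc1 were called higher in UC against UU, by 2.72 ± 0.42 and 1.17 ± 0.21 (limma adjusted p = 0.0283 and 0.029). Over all features 0.686% were called higher. When UC replicate 2, UC replicate 4 or UU replicate 1 was left out, 0 features were called, so both calls were lost. In a whole fat pad, fewer cells of a type and less RNA per cell cannot be told apart, and the part of cell make-up in the serpin values was not tested.

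Serpina10, which encodes the protein Z-dependent inhibitor of coagulation factor Xa, averaged 736 ± 210 in UC samples, 788 ± 190 in UU samples and 562 ± 133 in CC samples (SD, n = 5, 4 and 5). UC and CC samples overlapped, and the log2 difference between them was 0.36 ± 0.24 (limma adjusted p = 0.675). Serpina6, the corticosteroid-binding globulin gene, was below the filter, at 149.5 to 556 in UC, 84.3 to 480.0 in UU and 72.2 to 264 in CC samples. Singled out after its values were seen, it gave 1.07 ± 0.46 for UC against CC in the fit without the filter (limma adjusted p = 0.654). Serpina12, the gene of the adipokine vaspin, was dim throughout, at 29.5 to 195 in UC, 32.3 to 153 in UU and 38.8 to 142 in CC samples. Serpina5, the protein C inhibitor gene, was at 153 or less in every sample and Serpina3a at 73.1 to 649.

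**Figure D3:**
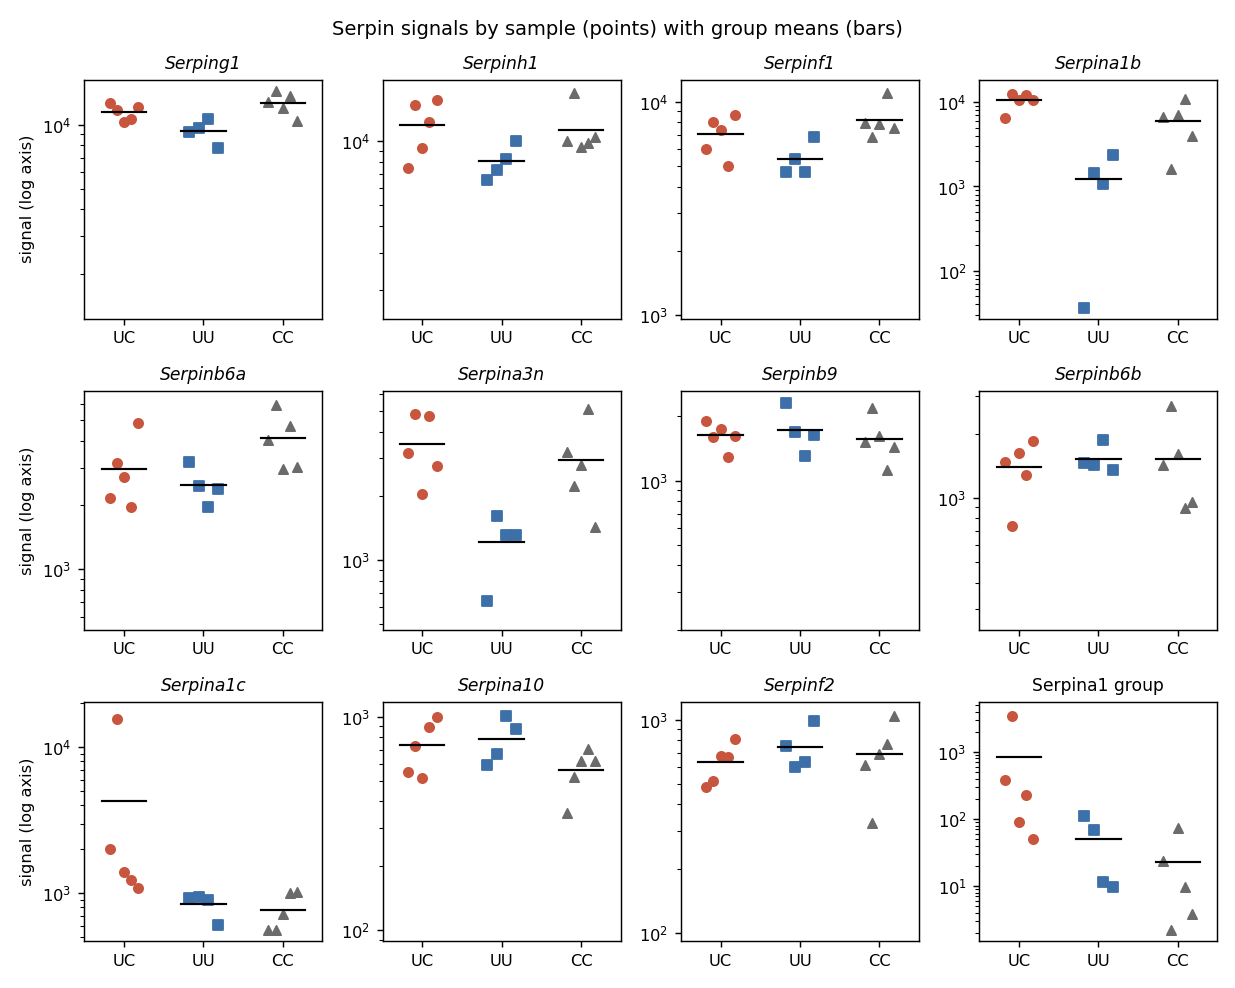
Signal of the 11 tested serpins and the Serpina1 group in each sample on log axes, by group from left to right (UC, UU, CC), with a bar at the group mean. The UU samples of Serpina1b (36.2 to 2367) and Serpina3n (640 to 1615) lie below all UC samples, and the clade B panels overlap across groups. Over all features tested, 3.5% had all UC samples above all UU samples.

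Serping1, Serpinf1 and Serpinh1 had lower mean signals in UU fat than in CC fat, and none was called. Serping1, the C1 inhibitor that restrains the first step of complement and plasma kallikrein, had 12591, 11637, 10267, 10577 and 12145 in UC samples. It had 9199, 9581, 10601 and 7739 in UU samples, against 12791, 14301, 11891, 13675 and 10441 in CC samples. Only UU replicate 3 and CC replicate 5 overlapped. The log2 difference was -0.44 ± 0.14 for UU against CC (limma adjusted p = 0.167). For UC it was 0.31 ± 0.14 against UU (adjusted p = 0.269) and -0.14 ± 0.13 against CC (adjusted p = 0.777).

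Serpinf1 encodes pigment epithelium-derived factor, a non-inhibitory secreted serpin that adipocytes release. It had 5978, 8034, 7404, 4986 and 8704 in UC samples. It had 4670.3, 5379.6, 4704 and 6863 in UU samples, against 7912, 6830, 7850, 11037 and 7514 in CC samples. UU replicate 4 lay just above the lowest CC sample. The log2 difference was -0.60 ± 0.19 for UU against CC (limma adjusted p = 0.168), and a dimmer probe set gave -0.33. For UC it was 0.36 ± 0.19 against UU (adjusted p = 0.329) and -0.24 ± 0.18 against CC (adjusted p = 0.718). The dimmer probe set gave -0.01 and -0.34 for these.

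Serpinh1 encodes HSP47, a collagen chaperone of the endoplasmic reticulum that inhibits no protease. Its signals were 7490, 14774, 9251, 12278 and 15614 in UC samples and 6575, 7325, 8275 and 10052 in UU samples. CC samples had 10060, 16823, 9409, 9775 and 10475, and only UU replicate 4 lay within the CC range. The log2 difference was -0.47 ± 0.23 for UU against CC (limma adjusted p = 0.321) and 0.52 ± 0.23 for UC against UU (adjusted p = 0.255). A dimmer probe set gave -0.91 and 0.52. Serpinf2, the alpha-2-antiplasmin gene, averaged 631 ± 133 in UC, 743 ± 177 in UU and 687 ± 257 in CC (SD, n = 5, 4 and 5), with overlapping samples in every pair of groups.

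Clade B held 14 members and 3 of them passed the filter. Serpinb6a, an intracellular inhibitor of cathepsin G, had 2154, 3158, 2716, 1960 and 4838 in UC samples and 3175, 2473, 1958 and 2385 in UU samples, against 4028, 5918, 2973, 4702 and 3025 in CC samples. Both groups of prenatally restricted mice overlapped the CC samples. The log2 difference was -0.50 ± 0.25 for UC against CC (limma adjusted p = 0.58) and -0.69 ± 0.26 for UU against CC (adjusted p = 0.218). Serpinb9, the granzyme B inhibitor of lymphocytes and other cells, averaged 1632 ± 225 in UC, 1736 ± 419 in UU and 1575 ± 392 in CC samples. Serpinb6b, a paralog of Serpinb6a, averaged 1393 ± 423, 1522 ± 234 and 1515 ± 728 in the same groups. Samples of these 2 genes overlapped in every pair of groups.

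Of the clade B members below the filter, Serpinb1b, Serpinb9g and Serpinb8 were singled out after their values were seen. The shares of features without overlap beside them are over the 7437 tested, so dim features such as these are not among them. Serpinb1b, a paralog of the elastase inhibitor Serpinb1a, had 301, 206, 191 and 258 in UU samples, with 240.3, 7.8, 29.9, 58.2 and 26.4 in UC samples and 127, 31.3, 18.7, 60.1 and 9.5 in CC samples. UC replicate 1 was the single sample outside UU that reached the UU range. UU and CC samples did not overlap, as was the case on the higher side for 4.71% of all features tested. Without the filter, the log2 difference was 1.89 ± 0.5 for UU against CC (limma adjusted p = 0.174) and -1.72 ± 0.5 for UC against UU (adjusted p = 0.162). Serpinb9g had 292, 281, 174 and 347 in UU samples, against 19.9 to 143 in UC samples and 9.9 to 174.3 in CC samples, with 1.38 ± 0.47 for UU against CC (adjusted p = 0.236) and -1.23 ± 0.47 for UC against UU (adjusted p = 0.264). UC and UU samples of Serpinb9g did not overlap, as on the lower side for 2.5% of all features tested. With a pseudocount of 1, or 4 times the one used, the UU against CC differences were 2.76 or 1.08 for Serpinb1b and 1.89 or 0.86 for Serpinb9g.

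Serpinb8, an inhibitor of the proprotein convertase furin, had 89.6, 204.8, 116 and 185 in UU samples, with 123 to 546 in UC samples and 374, 461, 228, 261 and 234 in CC samples. UU and CC samples did not overlap, as on the lower side for 3.63% of all features tested. The log2 difference for UU against CC was -0.93 ± 0.38 in the fit without the filter (limma adjusted p = 0.307). These signals are dim, and detection calls were not used here.

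Serpinb5, the epithelial serpin maspin, was low on its brightest probe set in the samples with little epididymal signal. Its signals were 198 and 88.1 in UC replicates 2 and 5 and 119.8 and 62.9 in CC replicates 2 and 4, the 4 samples low in Gpx5. In the other 10 samples it was at 528 to 695 (UC), 539.5 to 930.0 (UU) and 542 to 797 (CC). Of its dimmer probe sets, one had 300.5 in UC replicate 5, above the 294.0 of UC replicate 3, and the other had 178.6 there, the second lowest UC value. The mean log2 level of 7 epididymal markers was 7.1 to 12.63 in UC, 10.92 to 12.76 in UU and 7.03 to 13.08 in CC samples, and that of 14 general epithelial markers 8.97 to 11.69, 11.66 to 12.13 and 8.72 to 11.94. The part of epithelial tissue in the clade B values was not tested.

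Serpinb11, chosen after its values were seen, had 522 to 699 in UU samples, with 359.5 to 864 in UC samples and 429.5 to 490.0 in CC samples. All 4 UU samples lay above all 5 CC samples, as was the case on the higher side for 4.71% of all features tested. Serpinb11 was below the filter and not among those features. Median signals in UC, UU and CC were 469, 275 and 535 for Serpinb1a, an inhibitor of neutrophil elastase and cathepsin G, and 129.7, 70.8 and 151.9 for Serpinb2, plasminogen activator inhibitor 2. Samples of both genes overlapped in every pair of groups. A dimmer Serpinb1a probe set did not have UU lowest. Its UU samples were at 172.6 to 331.0, with 51.4 to 571.9 in UC and 103.2 to 395.6 in CC samples. Medians of Serpinb9b, Serpinb7, Serpinb6c and Serpinb9c ran from 80.2 to 936 over the groups, and their samples overlapped in every pair of groups.

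The serpins of clades C, D and I were below the filter. Serpinc1, antithrombin, was at 203, 1295, 196, 458 and 558 in UC samples, 219 to 484 in UU samples and 227 to 420 in CC samples, with its highest value in UC replicate 2, the sample of highest Alb. Serpind1, heparin cofactor II, was at 102 to 699.6 in UC, 126 to 526 in UU and 179.7 to 462 in CC samples. Serpini1, the inhibitor of tissue plasminogen activator known as neuroserpin, was at 238 to 731 in UC, 309 to 633 in UU and 289 to 371 in CC samples. Serpini2 was at 27.3 to 621, 263 to 605 and 181 to 598 in the same groups. These 4 genes overlapped in every pair of groups.

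Set side by side, the 2 tested Serpina1 copies gave log2 differences of 1.01 and 1.56 for UC against CC, 3.84 and 1.42 for UC against UU, and -2.83 and 0.14 for UU against CC, with Serpina1b first. The 9 other tested serpins ran from -0.50 to 0.36, from -0.22 to 1.5 and from -1.21 to 0.47 in these comparisons. The comparisons share samples and are not independent of each other. Over the 11 tested serpins the median log2 difference was 0.05 for UC against CC, -0.44 for UU against CC and 0.31 for UC against UU, beside 0, 0.05 and -0.06 over all features tested.

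**Figure D4:**
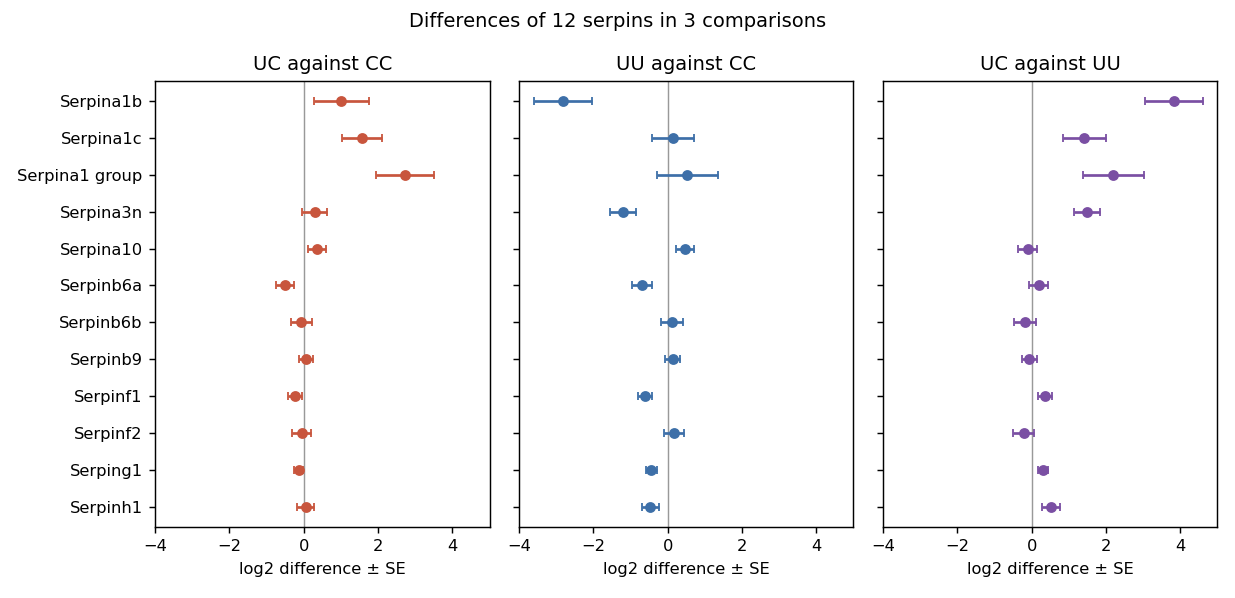
Log2 difference with SE for 12 serpins in UC against CC, UU against CC and UC against UU, positive where the first group is higher. The Serpina1 group comes from the fit without the filter; Serpina1b, at 3.84 for UC against UU, is the called value.

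Genes that serpins act with were read from lists written from general knowledge. Of 29 proteases and protease receptors, 13 were tested. In UU against CC, 10 were below 0 and 3 above (median -0.55, 0 called), and 7 were lower at an unadjusted p under 0.05, beside 7.75% of all features. C1ra, the complement protease that Serping1 inhibits, gave -1.05 ± 0.30 (limma adjusted p = 0.144), and Ctsb, cathepsin B, -0.78 ± 0.22 (adjusted p = 0.144). In UC against UU, 11 were above 0 and 2 below (median 0.41, 0 called), with 0.76 ± 0.20 for the secreted protease gene Htra1 (adjusted p = 0.0843) and 0.84 ± 0.22 for Ctsb (adjusted p = 0.0884). UC against CC had 6 above and 7 below (median -0.05, 0 called), with -0.64 ± 0.28 for C1ra and 0.36 ± 0.22 for Masp1 of the lectin pathway.

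Of 24 genes for protease inhibitors and related proteins outside the family, 14 were tested, and they were split in each comparison. UC against UU had 7 above and 7 below 0 (median -0.01). Anxa2, which encodes a cell surface receptor for plasminogen and its activator, was the 1 gene called, higher in UC by 0.80 ± 0.16 (limma adjusted p = 0.0343), where 0.686% of all features were called higher. Its call was lost in 15 of 28 alternatives (adjusted p from 0.0176 to 0.299). Spint2, an inhibitor gene that is also on the list of general epithelial markers, gave -1.56 ± 0.50 (adjusted p = 0.134). UU against CC had 8 above and 6 below 0 (median 0.11, 0 called), with -0.47 ± 0.16 for Anxa2 and -0.50 ± 0.20 for cystatin C, Cst3. UC against CC had 8 above and 6 below 0 (median 0.05, 0 called), with 0.89 ± 0.35 for the metalloproteinase inhibitor gene Timp4 and 0.32 ± 0.15 for Anxa2.

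Of 23 collagens and collagen-modifying genes, the partners of the chaperone Serpinh1, 21 were tested. In UU against CC, 18 were below 0 and 3 above (median -0.33, 0 called), and 10 were lower at an unadjusted p under 0.05, beside 7.75% of all features, with -0.77 ± 0.16 for Col6a3 (limma adjusted p = 0.102) and -0.75 ± 0.19 for Crtap of the prolyl 3-hydroxylase complex (adjusted p = 0.125). UC against UU had 18 above and 3 below (median 0.32), and 1 was called, Col6a3, higher in UC by 0.72 ± 0.16 (adjusted p = 0.0488), a call lost in 23 of 28 alternatives (adjusted p from 0.0272 to 0.426). Col4a2, a basement membrane collagen gene, gave 0.79 ± 0.20 (adjusted p = 0.0731). UC against CC had 13 above and 8 below (median 0.05, 0 called), with -0.49 ± 0.21 for the lysyl hydroxylase gene Plod1 and -0.30 ± 0.15 for Col1a2.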

How the data were processed

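Total RNA of 14 fat pads was hybridised to single-channel Affymetrix arrays. The deposited table holds linear intensity values. The submitters' processing notes name GCOS 1.3 and MAS5 for them. Every array had the same mean signal after trimming 2% at each end, about 1500. Detection calls, scan dates and litters were not used here. The number of arrays limits the precision.

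Groups came from the sample titles. Platform annotation gave 1 symbol for 20380 of 22690 probe sets, several for 691 and none for 1555 besides 64 controls. Symbols were updated through Entrez identifiers for 20351. For each gene, the probe set of highest mean log2(signal + 32) was used. All 14 samples entered one limma 3.58.1 model (R 4.3.3, 11 residual degrees of freedom, mean-variance trend) with 3 two-sided contrasts, adjusted by Benjamini-Hochberg over 7437 features and called under 0.05. A log2 difference is given ± its moderated SE. The fit was tested on simulated data. The members, lists, tests and alternatives were chosen with earlier results of these data known. Differences are given for called members, the 6 tested members of smallest p and the Serpina1 probe sets in each comparison, and for the 2 genes of smallest p of each pathway list. Differences of 4 members below the filter were added after their values were seen. Figures were drawn with matplotlib 3.10.9.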

Additional observations from a re-analysis of the deposited data

Results flagged for a closer look

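Over 31 members in 3 groups, 93 sets of linear signals were searched for a sample set apart from the rest of its group. Dixon's criterion was used, and 10 were found. Chance meets it in about 1 of 20 groups of normally distributed values. Linear signals can be skewed, so that rate need not hold here and the 10 were not set against it. In UC, replicate 2 was the highest for Serpina1c at 15701.6 (the others 1085.7 to 2022.6) and for the Serpina1 group at 3499.3 (the others 50.8 to 379.4), and replicate 1 for Serpinb1b at 240.3 (the others 7.8 to 58.2). In UU, replicate 4 was the lowest for Serpina1c at 602.3 (the others 893.1 to 936.3) and replicate 1 the highest for Serpina12 at 152.8 (the others 32.3 to 38.6). In CC, replicate 2, one of the 2 samples with Xist signal, was the highest for Serpinh1 at 16822.8 (the others 9409.3 to 10475.3), Serpinb1a at 1006.1 (the others 388.9 to 543.4) and Serpinb2 at 511.9 (the others 126.1 to 157.8). CC replicate 4 was the highest for Serpinf1 at 11037.1 (the others 6829.5 to 7912.0) and Serpinc1 at 420.0 (the others 227.4 to 271.5). Without CC replicate 2 the log2 difference of Serpinh1 for UU against CC was -0.32, and without CC replicate 4 that of Serpinf1 was -0.49.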

How the results depend on the processing

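A set of 28 alternative fits was run, 14 of which left out 1 sample each. None of the 29 serpin differences or 18 differences of list genes changed sign in them. Median centring moved the log2 differences of UC against UU by 0.14 throughout. Serpina1b in UC against UU kept its call in 16 and lost it in 12, with log2 differences of 2.7 to 4.42 when 1 sample was left out. It was lost with no filter (3.84, limma adjusted p = 0.0569), with only the 2 groups compared (3.84, adjusted p = 0.085), without both Xist-positive samples (3.82), without the 4 pads poor in epididymal markers (3.72) and without UC replicate 2 and UU replicate 1 together (2.63, adjusted p = 0.195), the last a fit chosen after seeing the data. Serpina3n in UC against UU was called with the dimmest 60% left out (1.5), median centring (1.64) and the replicate number as a block (1.65, adjusted p = 0.0275), and lay between 1.23 and 1.67 with 1 sample left out. It was also called without CC replicate 4, CC replicate 5 or UC replicate 3 (limma adjusted p = 0.0437, 0.0446 and 0.0388). Serpinb1b in UC against UU lay between -2.16 and -1.46 with 1 sample left out, called without UC replicate 1, and was -2.55 with a pseudocount of 1 and -0.96 with one 4 times as large as 32. The count of serpins called in UC against UU was therefore 0 to 2 with 1 sample left out. In the other alternatives it was 2 with the dimmest 60% left out, median centring or the replicate block. It was 0 in the 5 of those other alternatives in which Serpina1b was lost. Over all features, 60 were called in UC against UU, 120 with median centring, 94 with the replicate block, 25 with no filter, 40 with probe sets averaged, 9 with only 2 groups, 3 without both Xist-positive samples, 1 without the 4 pads poor in epididymal markers, 1 without UC replicate 2 and UU replicate 1, and 0 to 108 with 1 sample left out (0 without UC replicate 2, UC replicate 4 or UU replicate 1). In UC against CC and UU against CC the count of serpins called was 0 in every alternative.

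At an unadjusted p under 0.05, UC against CC had 3 serpins with no filter, 0 with the dimmest 60% left out, 2 with array weights, only 2 groups, without both Xist-positive samples or without the 4 pads poor in epididymal markers, and 1 to 2 with 1 sample left out. UU against CC had 8 with no filter, 3 without the 4 pads poor in epididymal markers and 4 to 6 with 1 sample left out. UC against UU had 8 with no filter, 3 with quantile normalization, without both Xist-positive samples, without the 4 pads poor in epididymal markers or without UC replicate 2 and UU replicate 1, and 3 to 5 with 1 sample left out. These counts have unlike bases: 31 serpins of 12394 features with no filter and 8 of 4958 with the dimmest 60% left out. The main fit had 11 of 7437. The share of all features at this cut-off was not taken in the alternatives, so the counts only describe the fits. In UC against UU the call was lost in 15 of 28 alternatives for Anxa2 and in 23 of 28 for Col6a3. The replicate numbers gave no clear pairing of the samples. Deviations of same-numbered samples correlated at -0.32 to 0.49, over 0.1 in 6 of 13 pairs. Of 14 samples, 3 correlated best with their own number. CC and UC replicates 1, 2 and 3 correlated at 0.42, 0.48 and 0.49, and replicates 4 and 5 at -0.11 and -0.32. This check cannot exclude a pairing, because tissue shared by 2 samples also enters the deviations. The cause of these changes was not tested.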
